A study of Mus musculus with 6 samples.

Results

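Helper and regulatory T cells are told apart by a small group of lineage transcription factors, of which 9 were followed here in double negative T (DNT) cells: *Tbx21*, *Eomes*, *Gata3*, *Rora*, *Foxp3*, *Ikzf2*, *Bcl6*, *Prdm1* and *Maf*. The genes were chosen by name, with earlier results of these data known. All 9 were matched by Ensembl identifier among the 26128 genes of the deposited table, and all 9 passed the filter on low counts that left 14671 genes to test. DNT cells are CD3+ T cells that lack CD4, CD8 and NK1.1. They had been converted in vitro from CD4+ T cells without CD25, taken from wild type adult C57BL/6 mice. The source was spleen in the sample labels, and spleen and lymph nodes in the methods. For the conversion the CD4+ cells were cultured with mature dendritic cells of DBA/2 mice and IL-2, and the DNT cells were sorted before use. Both groups then received anti-CD3/CD28 beads for 48 h. The 3 control libraries had the beads alone, and the 3 IL-33 libraries had the beads with IL-33, a cytokine of the IL-1 family, at 50 ng/ml. The comparison asks which of these factors differ in level when IL-33 is added to activated DNT cells. Whether replicates came from separate mice, conversions or wells is not stated in the labels or methods, so the p-values measure the spread between these libraries, which may be technical.

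The factors are known for the programmes they direct. T-bet (*Tbx21*) and Eomesodermin (*Eomes*) are related T-box proteins of interferon-γ producing and cytotoxic T cells, GATA3 directs type 2 helper cells, and RORα (*Rora*) is a nuclear receptor used by type 2 innate lymphoid cells and Th17 cells. FOXP3 defines regulatory T (Treg) cells, in many of which Helios (*Ikzf2*) is also found. BCL6 directs follicular helper (Tfh) cells and is opposed by Blimp-1 (*Prdm1*), a repressor of terminally differentiated effector cells, and each represses the gene of the other. c-MAF (*Maf*) takes part in the expression of IL-4, IL-10 and IL-21.

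The libraries held 20256342 to 22336050 counts, and 3 counts in a library correspond to 0.134 to 0.148 CPM, the unit of counts scaled by library size used throughout. The 11 T cell identity genes looked at, among them *Cd3e*, summed to between 3620 and 3740 CPM in the controls and between 3640 and 3740 CPM with IL-33, and the 2 that were higher and 4 that were lower by the adjusted p all differed by less than 1.5-fold. By the adjusted p alone 27.5% of all genes tested differed. *Cd4* was near the limit of detection, at 0.730 to 1.08 CPM in the controls and 0.225 to 0.511 CPM with IL-33. The RNA of *Cd8a* was abundant in spite of the sort, at 545 ± 13.6 CPM (SD, n = 3) without IL-33 and 400 ± 9.15 with it, and that of *Klrb1c*, which encodes NK1.1, was at 33.5 ± 2.57 and 25.6 ± 1.16 CPM. *Cd8b1* went the other way, from 9.68 ± 1.65 to 16.3 ± 2.07 CPM (log2 fold change 0.75, adjusted p = 6.2e-08 in edgeR). The NK cell gene *Ncr1* had 0 to 5 counts a library. The 7 mast cell and basophil markers summed to between 15.2 and 20.7 CPM in the controls and between 10.6 and 13.5 with IL-33, and the 10 dendritic and myeloid markers to between 68.9 and 72.0 and between 41.6 and 46.1, most of it *Itgax*. The 8 B and plasma cell markers summed to at most 13.7 CPM in the controls and 11.7 CPM with IL-33, and the 7 NK and innate lymphoid cell markers to between 262 and 284 and between 245 and 256. The most abundant of these 7 were *Il7r*, which fell from 96.0 to 60.5 CPM, past 1.5-fold, *Klrd1* (64.7 and 77.2 CPM) and *Il18r1* (54.5 and 71.2 CPM). *Il18r1* is also among the Th1 genes below, so this sum is not a measure of NK or innate lymphoid cells alone. A marker that was not among the listed genes added nothing to its sum. The part of other cell types in the values below was not tested.

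To compare the factors with each other, CPM was divided by the exon length of each gene in kb. On this scale *Eomes* was the most abundant, at 89.7 ± 0.349 CPM per kb (SD, n = 3) in the controls, above 96.8% of the genes tested. *Ikzf2* was next at 37.8 ± 0.625, followed by *Tbx21* at 19.1 ± 0.964, *Gata3* at 15.0 ± 0.709, *Maf* at 14.3 ± 0.836, *Prdm1* at 11.8 ± 0.926, *Rora* at 8.94 ± 0.426 and *Bcl6* at 8.75 ± 0.544. *Foxp3* came last at 0.237 ± 0.0488 CPM per kb, with only 5.92% of the genes tested below it. Neighbours in this order were apart in every control library except *Gata3* and *Maf*, and *Rora* and *Bcl6*, whose ranges overlapped. *Eomes* made up 43.6% ± 0.223 of the summed level per kb of the 9 factors without IL-33 and 42.8% ± 0.761 with it, and its level per kb was 4.69 times that of its relative *Tbx21* in the controls. With IL-33 *Prdm1* went from the sixth place to the third, at 17.4 ± 0.764 CPM per kb, where its range of 16.9 to 18.3 overlapped that of *Tbx21* at 15.2 to 17.1. *Maf* went from the fifth to the sixth at 9.11 ± 0.559. The order in the middle depended on the length used, since with the longest transcript of each gene 4 of the 9 factors held the same place in the controls. *Eomes*, *Ikzf2*, *Tbx21* and *Foxp3* were these 4.

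**Figure D1:**
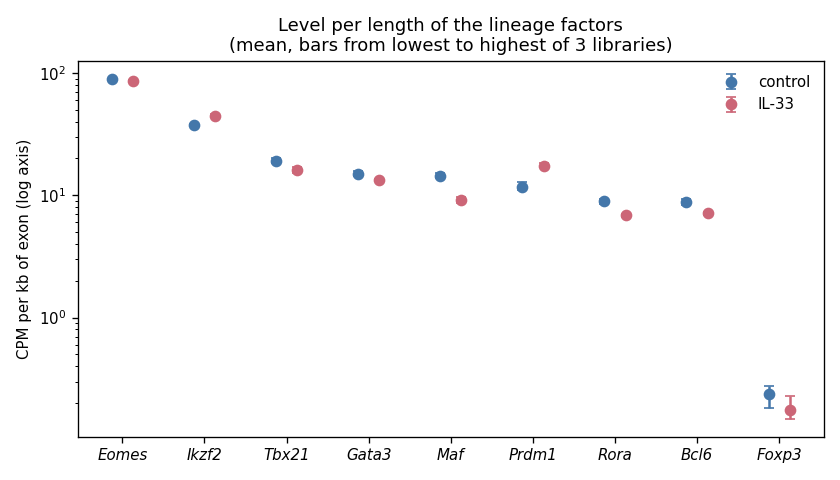
Level of each lineage factor in CPM per kb of exon, on a log axis, in control (blue) and IL-33 (red) libraries, with points at the mean and bars from the lowest to the highest of 3 libraries. *Eomes* and *Ikzf2* lie above all others and *Foxp3* lies far below them in both groups.

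With IL-33, *Maf* fell and was the only one of the 9 factors past both thresholds used by the study, an adjusted p under 0.05 and a log2 fold change of at least 0.585 in size (a fold change of 1.5). Over all genes tested 4.87% were past both, 2.39% lower and 2.47% higher with IL-33. By the adjusted p alone 7 of the 9 changed, *Prdm1* and *Ikzf2* upwards and *Maf*, *Rora*, *Bcl6*, *Tbx21* and *Gata3* downwards, beside 27.5% of all genes tested (13.6% higher and 13.9% lower). Since abundant genes are measured more precisely, the share among the 5004 genes with a mean of at least 40 CPM, the range of 8 of the factors, is also given, and was 44.4% by the adjusted p alone and 1.5% past both thresholds. The limit of 40 CPM was chosen after the values had been seen. In 8 of the 9 factors the 3 IL-33 libraries lay all above or all below the 3 controls, which held for 38.9% of all genes tested. The median log2 fold change of the 9 factors was -0.26, and that of all genes tested was -0.000628. In RNA from bulk samples fewer cells of a type and less RNA per cell cannot be told apart.

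**Figure D2:**
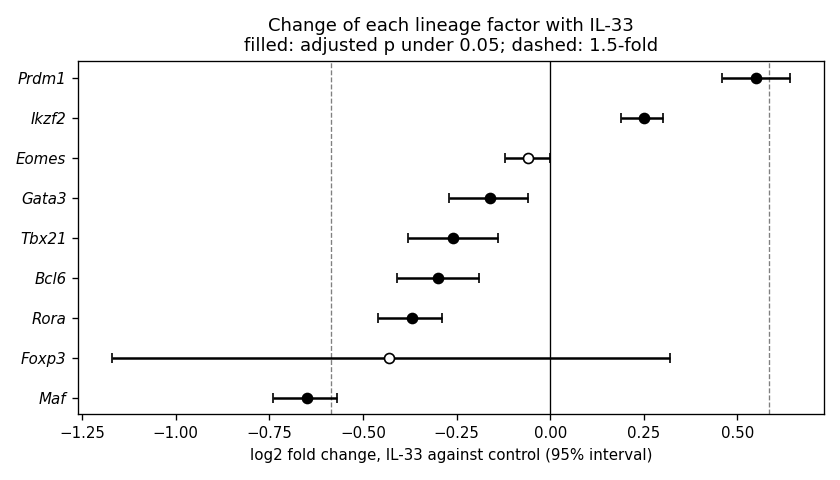
Log2 fold change of each factor, IL-33 against control, with its 95% interval; filled points had an adjusted p under 0.05 and the dashed lines mark a fold change of 1.5. *Maf* at -0.65 lies beyond the lower line, *Prdm1* at 0.55 lies just inside the upper one, and *Eomes* and *Foxp3* are the open points.

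*Maf* (ENSMUSG00000055435, chromosome 8 from 115682942 to 115707794 on the minus strand, in the GENCODE M21 annotation of GRCm38 used for all positions) was at 114, 114 and 126 CPM in the controls and at 73.2, 71.8 and 80.4 CPM with IL-33. All 3 IL-33 libraries were below all 3 controls, by at least 33.6 CPM. The mean fell by 36.5%, from 118 ± 6.89 to 75.1 ± 4.61 CPM (log2 fold change -0.65, 95% interval -0.74 to -0.57, adjusted p = 2.2e-22 in edgeR's quasi-likelihood test). Of the 14671 genes tested 515 fell more. Leaving out any single library gave log2 fold changes between -0.70 and -0.60, past both thresholds each time. The 95% interval reaches just inside the threshold, and the test of edgeR against a fold change of 1.5 itself gave an adjusted p of 0.885. The 3 genes whose levels over the 6 libraries ran closest to those of *Maf* were *Slc37a3*, *Iigp1* and *Kif18b*, with root mean square differences of 0.045, 0.050 and 0.050 on the centred log2 scale, where the median over 12959 genes was 0.35. *Iigp1* encodes an interferon-induced GTPase and *Kif18b* a mitotic kinesin. *Mafa* and *Nrl*, which also belong to the large MAF proteins, had 0 to 4 counts a library each, too few to test. The 3 small MAF proteins, which pair with other basic leucine zipper proteins and lack an activation domain, went different ways. *Maff* rose from 33.8 ± 3.27 to 41.7 ± 1.00 CPM (log2 fold change 0.30, adjusted p = 0.00011), *Mafg* rose from 73.5 ± 0.747 to 79.7 ± 0.339 (0.12, adjusted p = 0.0336), and *Mafk* fell from 51.8 ± 1.72 to 42.0 ± 0.256 (-0.30, adjusted p = 8.7e-06, all in edgeR). The call of *Mafg* was lost without any 1 of the 6 libraries, with adjusted p values up to 0.107, and in DESeq2 (adjusted p = 0.0986).

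*Prdm1* (ENSMUSG00000038151, chromosome 10 from 44437177 to 44528501, minus strand) had the largest rise of the 9. It was at 65.5, 61.1 and 71.4 CPM in the controls and at 94.9, 102 and 94.1 CPM with IL-33, with no overlap between the groups. The mean rose from 66.0 ± 5.16 to 97.0 ± 4.26 CPM (log2 fold change 0.55, 95% interval 0.46 to 0.64, adjusted p = 9.1e-18 in edgeR). The interval holds the threshold of 0.585, and without control replicate 3, the highest of the controls, the log2 fold change was 0.61 and *Prdm1* was past both thresholds as well. *Bcl6* (ENSMUSG00000022508, chromosome 16 from 23965052 to 23988852, minus strand) moved the other way. It was at 55.7, 62.7 and 57.5 CPM in the controls and at 49.3, 47.6 and 46.0 CPM with IL-33, again without overlap, and fell from a mean of 58.7 ± 3.64 to 47.7 ± 1.67 CPM (log2 fold change -0.30, 95% interval -0.41 to -0.19, adjusted p = 4.9e-06 in edgeR). Within each library the log2 ratio of *Bcl6* counts to *Prdm1* counts was -0.23, 0.04 and -0.31 in the controls and -0.94, -1.1 and -1.03 with IL-33. A ratio within a library does not depend on scaling between libraries, but it is not corrected for length, so only its change is read. The change was -0.85, with the groups apart (exact two-sided permutation test, p = 0.1, the smallest that 3 against 3 can give, and 0.25 adjusted over the 5 ratios computed). Since *Bcl6* was lower and *Prdm1* higher in every IL-33 library, this separation follows from the values of the 2 genes and adds no support.

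The sequences upstream of *Prdm1* and *Bcl6* are shown because this pair moved in opposite directions. They come from the RefSeq promoters of GRCm38.p6, which were matched by symbol for 7 of the 9 factors (not for *Ikzf2* or *Maf*), and cover the 250 bases before a transcription start site, 5′ to 3′ on the strand of the gene, at chr10:44458749-44458998 for *Prdm1* and chr16:23988853-23989102 for *Bcl6*. The window of *Prdm1* lies inside the gene as GENCODE draws it, before a start site downstream of the outermost one. Capitals mark a match to one of 6 short motifs searched on both strands.
Prdm1: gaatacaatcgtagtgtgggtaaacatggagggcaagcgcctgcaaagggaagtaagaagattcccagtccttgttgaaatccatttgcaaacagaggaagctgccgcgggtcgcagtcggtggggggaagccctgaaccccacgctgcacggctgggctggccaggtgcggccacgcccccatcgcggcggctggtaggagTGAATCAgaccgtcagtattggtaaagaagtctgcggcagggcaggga
Bcl6: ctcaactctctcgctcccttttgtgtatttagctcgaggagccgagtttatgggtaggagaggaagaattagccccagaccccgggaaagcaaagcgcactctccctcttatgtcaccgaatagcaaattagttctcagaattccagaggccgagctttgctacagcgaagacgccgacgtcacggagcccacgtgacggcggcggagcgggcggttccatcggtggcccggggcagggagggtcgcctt
The capitals in *Prdm1* mark TGAATCA at position -48 from the start site, a match to TGANTCA, the motif of AP-1 factors, which 6.75% of all 32851 promoters of the table held in the same 250 bases. The other motifs were AGATAA for GATA factors (9.99% of promoters), AGGTGT for T-box factors (11.8%), AGGTCA for ROR factors (14.0%), TGCTGA for large MAF factors (16.1%) and the κB motif of NF-κB (0.356%), of which TGCTGA and TGANTCA can overlap. The windows of *Bcl6*, *Eomes*, *Rora* and *Tbx21* held no match to any of the 6. That of *Gata3* held TGCTGA at position -90. Of the pair of start sites of *Foxp3*, one had TGCTGA on the other strand at position -115 and one had AGATAA at -47 and AGGTCA at -91 and -70. A match describes letters and does not show binding.

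**Figure D3:**
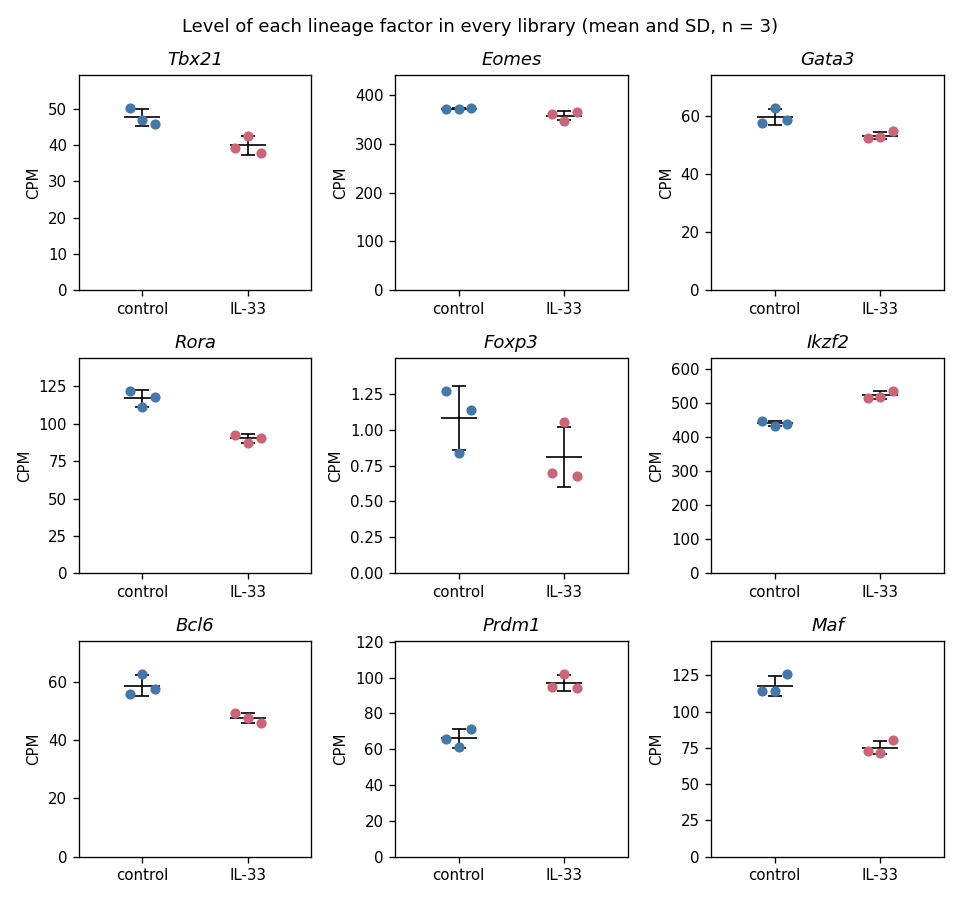
CPM of each of the 9 factors in every control (blue) and IL-33 (red) library, with the mean and SD of 3 libraries in black and every axis starting at 0. *Prdm1* and *Ikzf2* are higher in every IL-33 library, 6 factors are lower in every one, and the groups overlap in *Foxp3* alone.

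Among the factors of regulatory T cells, *Ikzf2* rose and *Foxp3* was barely measured. *Ikzf2* (ENSMUSG00000025997, chromosome 1 from 69531214 to 69687245, minus strand) was at 447, 432 and 439 CPM in the controls and at 514, 516 and 535 CPM with IL-33. Every IL-33 library was above every control, by at least 67.7 CPM. The rise of the mean from 439 ± 7.26 to 522 ± 11.9 CPM was one of 18.8% (log2 fold change 0.25, 95% interval 0.19 to 0.30, adjusted p = 9.4e-13 in edgeR). *Foxp3* (ENSMUSG00000039521, chromosome X from 7573644 to 7595245, plus strand) had 27, 17 and 25 counts in the controls and 15, 22 and 15 with IL-33. These are above the 3 counts taken as the limit of detection, and the groups overlapped. The means were 1.08 ± 0.223 and 0.807 ± 0.210 CPM, and a difference was not detectable at this depth (fold change 0.743, 95% interval 0.443 to 1.25, adjusted p = 0.44 in edgeR). *Foxp3* shares its locus with *Flicr*, a noncoding gene on the same strand with 9 to 22 counts a library, and with *Ppp1r3f* on the other strand with 12 to 23. Whether counting used the strand is unknown, so the few counts of *Foxp3* are uncertain. The log2 ratio of *Foxp3* to *Ikzf2* counts was -8.43, -8.97 and -8.56 in the controls and -9.48, -8.91 and -9.58 with IL-33, and overlapped between the groups (exact two-sided permutation test, p = 0.2). *Gm29114*, a noncoding gene on the other strand within *Ikzf2*, had 4, 2 and 12 counts in the controls and 14, 16 and 19 with IL-33. Its call (log2 fold change 1.40, adjusted p = 0.0318 in edgeR) was lost without any 1 library but control replicate 3, with adjusted p values up to 0.198. Its counts came to 0.109% of those of *Ikzf2*, and it was named after its values had been seen.

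Of the T-box factors *Tbx21* fell and *Eomes* did not pass the test. *Eomes* (ENSMUSG00000032446, chromosome 9 from 118478212 to 118486132, plus strand) was at 372, 372 and 375 CPM in the controls and at 361, 348 and 366 CPM with IL-33. All 3 IL-33 libraries were lower, by at least 6.00 CPM. The means of 373 ± 1.45 and 358 ± 9.25 CPM gave a fold change of 0.961 (95% interval 0.923 to 1.00), which did not pass the test (adjusted p = 0.143 in edgeR). *Gm33460* overlaps *Eomes* on the other strand, and its 70 to 116 counts a library came to 1.15% of those of *Eomes*. *Tbx21* (ENSMUSG00000001444, chromosome 11 from 97098071 to 97115331, minus strand) was at 50.3, 46.9 and 45.7 CPM in the controls and at 39.3, 42.6 and 37.7 CPM with IL-33. The groups were apart by 3.09 CPM, and the mean fell from 47.6 ± 2.40 to 39.9 ± 2.49 CPM (log2 fold change -0.26, 95% interval -0.38 to -0.14, adjusted p = 0.00039 in edgeR). The log2 ratio of *Eomes* to *Tbx21* counts ran from 2.88 to 3.03 in the controls and from 3.03 to 3.28 with IL-33, a change of 0.20 (exact two-sided permutation test, p = 0.2, in a design that cannot go below 0.1). The 3 genes closest to *Eomes* over the 6 libraries were *Bzw1*, *Tes* and *Mtor*, with root mean square differences of 0.0092 to 0.011 on the centred log2 scale, where the median was 0.12.

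*Gata3* and *Rora*, the factors tied to type 2 responses, were both lower with IL-33. *Gata3* (ENSMUSG00000015619, chromosome 2 from 9857078 to 9890034, minus strand) was at 57.4, 62.8 and 58.7 CPM in the controls and at 52.2, 52.8 and 54.6 CPM with IL-33. The groups did not overlap, and the mean fell from 59.6 ± 2.82 to 53.2 ± 1.23 CPM (log2 fold change -0.16, 95% interval -0.27 to -0.06, adjusted p = 0.0124 in edgeR). This call rested on single libraries, since the adjusted p was 0.12 without control replicate 2 and 0.0671 without IL-33 replicate 1. *Rora* (ENSMUSG00000032238, chromosome 9 from 68653786 to 69388246, plus strand) was at 122, 111 and 118 CPM in the controls and at 92.8, 87.4 and 90.3 CPM with IL-33. Each IL-33 library was below each control by at least 18.1 CPM, and the mean fell from 117 ± 5.57 to 90.2 ± 2.70 CPM (log2 fold change -0.37, 95% interval -0.46 to -0.29, adjusted p = 5.1e-13 in edgeR). The log2 ratio of *Gata3* to *Tbx21*, the factors of the opposed Th2 and Th1 programmes, was 0.19, 0.42 and 0.36 in the controls and 0.41, 0.31 and 0.53 with IL-33. It changed by 0.09 with overlapping groups (exact two-sided permutation test, p = 0.5). The ratio of *Maf* to *Gata3* was 0.99, 0.87 and 1.1 on the log2 scale in the controls and 0.49, 0.44 and 0.56 with IL-33. It changed by -0.49 without overlap (exact two-sided permutation test, p = 0.1, adjusted p = 0.25).

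**Figure D4:**
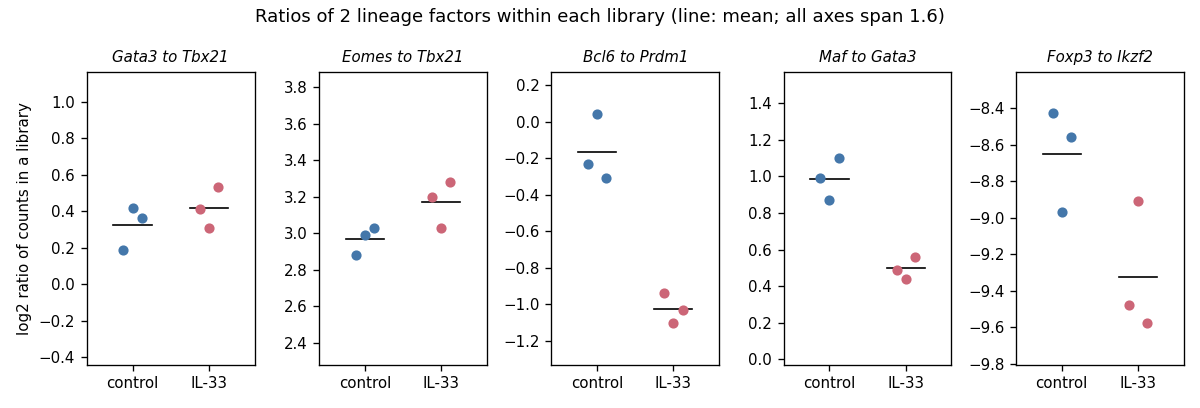
Log2 ratio of the counts of 2 factors in each control (blue) and IL-33 (red) library, with lines at the group means; all axes span the same range. *Bcl6* to *Prdm1* and *Maf* to *Gata3* are lower in every IL-33 library, and the groups overlap or meet in the other 3 ratios.

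Of 28 other genes of the same DNA-binding families 17 could be tested. By the adjusted p alone 3 of the 17 were higher and 4 lower, beside 13.6% and 13.9% of all genes tested. The median log2 fold change of the 17 was -0.02. The most abundant relatives per kb were *Ikzf1*, *Ikzf3* and *Prdm2*. *Ikzf1*, the gene of Ikaros, was at 377 ± 5.59 and 371 ± 8.99 CPM (log2 fold change -0.02, 95% interval -0.08 to 0.04, adjusted p = 0.623). *Ikzf3*, the gene of Aiolos, fell from 197 ± 2.13 to 148 ± 6.22 CPM (log2 fold change -0.41, adjusted p = 8e-18), while its relative *Ikzf2* rose. *Prdm2* fell from 119 ± 1.30 to 110 ± 0.529 CPM (log2 fold change -0.11, adjusted p = 0.0274), and this went above 0.05 in DESeq2, without the filter on low counts and without any 1 library but control replicate 3. *Gata2*, a mast cell and progenitor factor, had 1, 14 and 5 counts in the controls and 0 in each IL-33 library.

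**Figure D5:**
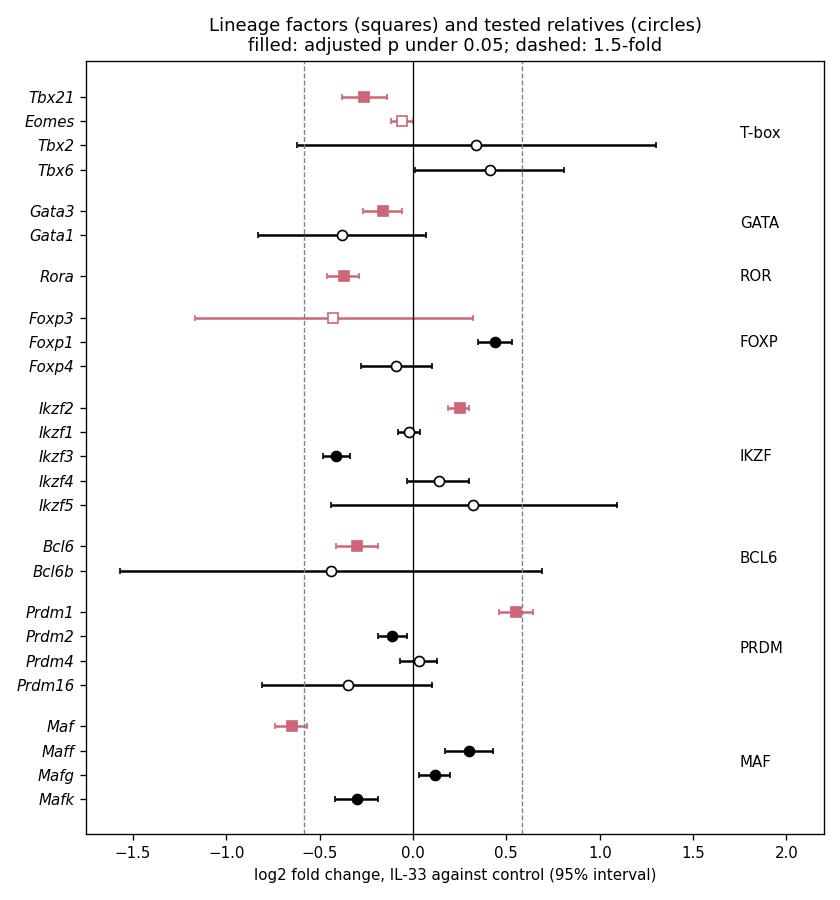
Log2 fold change with its 95% interval of the 9 factors (red squares) and of tested relatives (black circles) by family; filled symbols had an adjusted p under 0.05 and dashed lines mark a fold change of 1.5. Among the filled symbols, the IKZF, PRDM and MAF families hold both rises and falls.

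Of 29 other regulators of T cell programmes 28 could be tested, with 1 higher and 2 lower past both thresholds and 7 higher and 10 lower by the adjusted p alone, and a median log2 fold change of -0.16. Over all genes tested 4.87% were past both thresholds and 27.5% passed by the adjusted p alone. Among genes with a mean of at least 40 CPM these shares were 1.5% and 44.4%. *Zbtb16*, the gene of PLZF, a factor of innate-like T cells, fell from 24.1 ± 2.16 to 15.0 ± 1.12 CPM (log2 fold change -0.69, adjusted p = 4e-10 in edgeR). *Klf2*, which controls genes of T cell migration, rose from 2.34 ± 0.384 to 3.87 ± 0.427 CPM (log2 fold change 0.72, adjusted p = 0.00476). The call of *Hlx*, a homeobox gene that acts with T-bet, was weak, with overlapping levels of 1.36 ± 0.449 and 0.687 ± 0.443 CPM (log2 fold change -0.97, adjusted p = 0.0492), and was lost in DESeq2 (adjusted p = 0.18), without the filter, and without control replicate 1 or 3 or IL-33 replicate 1 or 2. The most abundant regulators per kb were *Id2*, *Bhlhe40* and *Nfil3*. *Id2*, an inhibitor of E proteins, was at 1020 ± 4.92 and 1080 ± 9.41 CPM (log2 fold change 0.07, adjusted p = 0.0125, and 0.0566 without IL-33 replicate 3). *Bhlhe40* rose from 812 ± 19.4 to 912 ± 11.5 CPM (log2 fold change 0.17, adjusted p = 2e-08), and *Nfil3* was at 240 ± 7.75 and 228 ± 5.37 CPM (log2 fold change -0.07, adjusted p = 0.0882).

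Genes that mark the programmes of these factors were counted in lists written with earlier results of these data known. The counts stand beside 4.87% of all genes tested past both thresholds and 27.5% by the adjusted p alone. Of 12 tested Th1 and cytotoxic genes *Ifng* was the only one past both thresholds, 5 were higher and 4 lower by the adjusted p, and the median log2 fold change was 0.00. *Ifng*, the gene of interferon-γ, rose from 42.7 ± 4.03 to 83.2 ± 2.50 CPM (log2 fold change 0.96, adjusted p = 4.1e-29 in edgeR), while *Tbx21* was lower. Of 11 tested Th2 genes *Il5*, *Il13* and *Areg* rose and *Il1rl1*, *Il17rb* and *Il9r* fell past both, and the median of the list was -0.06. *Il9r* was within 1.5-fold without IL-33 replicate 1 (log2 fold change -0.50) or 2 (-0.58). *Il4* was at 6.33 ± 1.02 and 6.20 ± 0.842 CPM (adjusted p = 0.919) and *Il10* at 20.2 ± 3.55 and 21.7 ± 0.386 CPM (adjusted p = 0.452). Of 7 Th17 genes 4 could be tested, with a median of -0.16, and *Il1r1* was lower past both, from 7.41 ± 0.610 to 4.64 ± 0.755 CPM (log2 fold change -0.67, adjusted p = 0.00028, and -0.58 without IL-33 replicate 2, within 1.5-fold). *Il17a* was at 7.99 ± 0.184 and 9.25 ± 1.29 CPM (adjusted p = 0.235). Of the Th17 genes too low to test, *Il22* had 2, 1 and 4 counts in the controls and 16, 19 and 7 with IL-33. *Il17f* and *Ccr6* had 0 to 11 counts a library, with overlapping groups. Of 11 tested Treg genes *Ctla4* rose and *Itgae* and *Nrp1* fell past both, with 4 higher and 2 lower by the adjusted p and a median of 0.11. *Nrp1*, a surface marker of thymus-derived Treg cells, was at 4.02 ± 0.382 and 2.27 ± 0.497 CPM (log2 fold change -0.83, adjusted p = 0.00113). Of 9 tested Tfh genes *Slamf6* was the only one past both, 3 were higher and 1 lower by the adjusted p, and the median was 0.36. It rose from 8.75 ± 0.333 to 15.9 ± 1.34 CPM (log2 fold change 0.86, adjusted p = 3.5e-10). *Cxcr5*, the defining receptor of Tfh cells, had 0 to 8 counts a library, and *Il21* was at 0.398 ± 0.227 and 0.818 ± 0.124 CPM (adjusted p = 0.0906).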

How the data were processed

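RNA of 6 libraries, 3 control and 3 IL-33, was grouped by the sample titles. The deposited table gives, for each gene, raw counts per library with no normalization by the authors, and 1 column of signal named by the authors as a base mean, which was not used. The submitters' processing notes name Bowtie 0.12.2 and the build mm8, with no role given. The counting program, its annotation and its strand setting were not given in the sources used here. For library preparation, the labels name a TruSeq kit and the methods a NEBNext kit. The table holds no coordinates. Of its 26128 identifiers 26072 had a symbol and 26086 were in GENCODE M21 (GRCm38), which gave the positions and exon lengths.

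Genes were filtered by filterByExpr (minimum count 10, minimum total 15), scaled by TMM and compared with edgeR 4.0.16 (R 4.3.3; robust glmQLFit and glmQLFTest, two-sided, no covariates), with Benjamini-Hochberg adjustment over 14671 genes. The thresholds are those of the methods, which name no tool. CPM values are scaled by TMM, except the sums over marker lists, which use the library totals. Intervals cover the spread between libraries, and the limit of 3 counts covers only counting error. Replicates of a group all differed by more than sampling noise (chi-square per gene 2.64 to 3.67). On simulated counts of this comparison, 94% of 100 genes changed 1.5-fold had an adjusted p under 0.05 in the right direction, of 14608 tested. For 100 genes changed 2-fold this share was 100%. An adjusted p under 0.05 was also given to 17 unchanged genes. The fold threshold was not applied, so these shares do not hold for calls past both thresholds. The changed genes were drawn from above a minimum level, so the shares do not cover genes as low as *Foxp3*. Ratios had 0.5 added to each count.

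The members and the lists were chosen with earlier results of these data known. All 9 members were given. Of each list the genes past both thresholds (at most 6) and, of relatives and other regulators, the 3 most abundant were named. The 3 genes nearest in profile were named for members past both thresholds and for the most abundant member, among genes with a mean of at least 1 CPM. Others were named after their values had been seen. Some genes of the lists are not reported here. Alternatives were DESeq2 1.42.0, limma-voom 3.58.1, other scaling, filters and thresholds, a replicate block, each library left out and, for the ratios, 1 added to each count.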

Additional observations from a re-analysis of the deposited data

How the results depend on the processing

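The number of genes past both thresholds, 714, was 113 in the test against the fold threshold itself (66.4% of them higher, beside 50.8%) and 4036 by the adjusted p alone, and 621 to 719 with 1 library left out. At the same thresholds it was 501 in DESeq2, 499 of them among the 714, and 690 in limma-voom. Of the 9 factors, 0 passed the test against the fold threshold in edgeR (1, *Maf*, had an unadjusted p under 0.05, at 0.0171, and 1 was past both thresholds in DESeq2), 7 passed by the adjusted p alone, and 1 to 2 were past both with 1 library left out, *Prdm1* being the second without control replicate 3. In the test against the fold threshold the 7 factors kept their estimates by its construction (*Tbx21* -0.26, *Gata3* -0.16, *Rora* -0.37, *Ikzf2* 0.25, *Bcl6* -0.30, *Prdm1* 0.55 and *Maf* -0.65). None of them passed it, nor did *Maf*, whose estimate lies beyond the threshold (adjusted p = 0.885 in that test of edgeR). *Gata3* lay between -0.19 and -0.13 with 1 library left out. By the longest transcript 4 of the 9 factors kept their place in the order of levels. No factor changed direction in any alternative. No pairing of the libraries by replicate number was detectable (correlations of same-numbered deviations -0.00884 to 0.0111, and not every library correlated best with its own number). With 3 libraries a group this cannot show that they were unpaired. With the replicate block 666 genes were past both thresholds, 657 of them among the 714. They held 1 of the 9 factors, and the same 7 factors had an adjusted p under 0.05. The block cannot alter the changes of the 5 ratios (*Bcl6* to *Prdm1* -0.85), since the mean of paired differences equals the difference of the group means. Its exact sign-flip test gave p = 0.25 for *Bcl6* to *Prdm1*, the smallest possible with 3 pairs. Of the values of other named genes under alternatives, 581 kept their side of the threshold and 74 lost it. Depth limits *Foxp3*, with 15 to 27 counts a library.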

Other observations

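Several further regulators, picked after their values had been seen, changed by the adjusted p and not by 1.5-fold. The RUNX factors moved in opposite directions. *Runx3*, a factor of CD8+ and cytotoxic T cells, rose from 229 ± 8.50 to 306 ± 6.55 CPM (log2 fold change 0.42, adjusted p = 9.7e-21 in edgeR), and *Runx1* fell from 96.7 ± 2.75 to 72.5 ± 3.03 CPM (-0.42, adjusted p = 2.8e-14). *Zbtb32*, the gene of a zinc finger repressor that binds GATA3, rose from 90.7 ± 4.98 to 130 ± 9.26 CPM (0.52, adjusted p = 1.7e-15). Of 6 factors known from naive T cells 3 rose and 3 fell. *Foxp1*, *Foxo1* and *Lef1* rose by 0.44, 0.36 and 0.35 on the log2 scale, with adjusted p values of 7.2e-13, 6.5e-12 and 4.9e-10. *Tcf7* fell from 35.2 ± 0.323 to 28.9 ± 2.60 CPM (-0.28, adjusted p = 0.00068), *Satb1* from 463 ± 3.05 to 403 ± 13.3 (-0.20, adjusted p = 7.5e-09) and *Bach2* from 17.1 ± 0.0701 to 14.3 ± 0.399 (-0.27, adjusted p = 0.0321). In all 9 genes each IL-33 library lay on one side of each control, as in 38.9% of all genes tested. Since the 9 were picked by their change in these same libraries, this adds no support. Leaving out any 1 library changed no direction, and no call by adjusted p but that of *Bach2*, which was lost without any 1 library except IL-33 replicate 3 (adjusted p up to 0.0867), with no filter (0.0522) and in DESeq2 (0.0726).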
